A study of Arabidopsis thaliana with 12 samples.

Results

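The genes described here are the 10 mitochondrial genes of Arabidopsis thaliana for subunits of the last enzymes of respiration: cob, cox1, cox2, cox3, atp1, atp4, the copies atp6-1 and atp6-2, atp8 and atp9. They are defined by locus identifier and are 10 of the 33602 gene models counted and of the 146 mitochondrial ones. The libraries are total RNA of plants labelled as T-DNA insertion mutants of DYW2 or of OTP100 (NUWA), and the stated aim was to find transcript defects of nucleus and organelles. There were 3 libraries labelled dyw2 homozygous, 3 labelled dyw2 heterozygous, 3 labelled nuwa homozygous and 3 labelled nuwa heterozygous. By label every plant carried an insertion. The names of the 6 files of heterozygous libraries say WT instead, so whether these plants carried an insertion is not settled, and heterozygous below means the label. All samples had the same labels for tissue (flower bud, rosette and stem) and developmental stage and were grown on soil; accession, insertion site and plants per sample are not stated in the sources. The submitters describe the 3 samples per group as biological replicates, but no label ties a sample to its own plant, so p-values rest only on the variation among these samples, and this may be technical.

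Complex III passes electrons from ubiquinol to cytochrome c, complex IV (cytochrome c oxidase) passes them on to oxygen, and complex V (ATP synthase) uses the resulting proton gradient to make ATP. In plants the mitochondrial genome encodes a few core subunits of each and nuclear genes encode the rest. Many plant mitochondrial transcripts have C-to-U changes made by RNA editing, which depends on pentatricopeptide repeat proteins such as DYW2 and NUWA. The nuclear genome of Arabidopsis also holds a large insertion of mitochondrial DNA on chromosome 2, so that several mitochondrial genes have a second, nuclear copy. The deposited values are counts of reads per model, and reads whose best and second-best alignments scored equally had been removed before counting.

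Library totals lay between 13329334 and 97804029 counts, with 13329334 to 24632485 in the dyw2 homozygous libraries and at least 37496733 in every other. The reads removed for equal scores were 5.94% to 6.06% of mapped reads in the dyw2 homozygous libraries and 2.54% to 3.39% in the other 9. Reads of the targeted genes did not fall with the label. The counts that follow are raw, and totals were lower in the dyw2 homozygous libraries, so they understate DYW2 there. They also understate NUWA in nuwa homozygous libraries. Library sizes corrected for makeup by TMM were 29821746 to 42042844 there, against 45446659 to 68435215 in nuwa heterozygous ones. DYW2 (AT2G15690) had 306, 558 and 313 counts in dyw2 homozygous libraries, against 378, 301 and 404 in dyw2 heterozygous ones, and NUWA (AT3G49240) had 32, 40 and 53 counts in nuwa homozygous libraries, against 30, 24 and 52 in nuwa heterozygous ones. Group names below are therefore labels, and every direction is one between labelled libraries. The labels of a pair of libraries contradict themselves, with a dyw2 title but a nuwa genotype entry for dyw2 homozygous replicate 2, and the reverse for nuwa homozygous replicate 3. Groups here come from the titles, and for cox1 each of these libraries lay with those of its title (3894 normalized CPM, which are counts scaled to one common TMM-corrected library size, in dyw2 homozygous replicate 2, beside 3479 and 3520, and 1576 in nuwa homozygous replicate 3, beside 1524 and 1441). For atp4 each was the lowest of its titled group, at 83.85 beside 134.2 and 169.9 in dyw2, and 63.1 beside 134.5 and 128.5 in nuwa. Cox1 is itself tested between these groups, so its values do not settle the labels. With groups taken from the genotype field, 0 of the 8 tested genes were called by edgeR on TMM-normalized counts in dyw2, in nuwa or for the difference between them. The nuclear genes of complexes III, IV and V, given further on, also had 0 calls in dyw2 with these groups. The 0 is therefore not particular to the 8 genes, and the share of all models called with these groups is not reported here. The fits scaled to mitochondrial transcripts as a whole, given further on, were not run with these groups.

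Many of the 10 genes share sequence with second copies. In the TAIR10.1 reference the complete coding sequences of cob, cox3, atp1, atp6-1, atp8 and atp9 also stand on chromosome 2 without a difference. Of the windows of 50 bases in each coding sequence, 0% were unique in the genome for these 6 genes, against 28.9% for atp6-2, 74.2% for cox2 and 100% for cox1 and atp4. Between 64.2% and 71.1% of the windows of atp6-1 and atp6-2 occurred at both atp6 copies in the mitochondrial sequence. The mitochondrial sequence in TAIR10.1 may not be the one used for alignment, so these shares describe the reference and not the alignment. The first 90 bases of the coding sequences of cob, atp8 and atp1 are shown as they stand on chromosome 2 (TAIR10.1, RefSeq), because a read from them cannot be assigned by sequence. They lie on the plus strand at chr2:3450863-3450952 for cob, chr2:3386292-3386381 for atp8 and chr2:3362505-3362594 for atp1, within identical stretches of 1182, 477 and 1524 bases. Capitals mark the start codon.
cob: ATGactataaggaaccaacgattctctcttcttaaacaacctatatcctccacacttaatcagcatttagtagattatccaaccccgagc
atp8: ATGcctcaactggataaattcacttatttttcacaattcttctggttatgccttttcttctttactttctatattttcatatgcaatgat
atp1: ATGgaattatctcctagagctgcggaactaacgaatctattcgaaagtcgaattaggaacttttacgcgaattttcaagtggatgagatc

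Genes with a second copy split their counts between the models in different ways. For cob (ATMG00220), the gene of cytochrome b and the 1 mitochondrial subunit of complex III, the mitochondrial model held 32 counts over all 12 libraries, 1 to 5 in each. The chromosome 2 model AT2G07727 held 107464 counts, 99.97% of both. For atp8 (ATMG00480), the gene of a small membrane subunit of ATP synthase, both the mitochondrial model and AT2G07707 held 0 counts in every library, as did the atp6 copy AT2G07741. What these zeros say of the transcript was not tested. Some windows of cob and atp8 also lie in the chromosome 2 model AT2G07718, and some of the atp6 copies in AT2G07699. Counts on these other models are not reported here. The chromosome 2 model held 82.4% of both for atp1, 42.5% for cox3 and 12.1% for atp9. For cox2 it held 23 counts in all, against 444491 on the mitochondrial model. Counts of cob, cox3, atp1 and atp9 therefore cannot be assigned to a genome, and those of the atp6 copies cannot be fully assigned to a copy. Cob and atp8 did not pass the filter on low counts, which left 8 of the 10 genes tested.

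**Figure D1:**
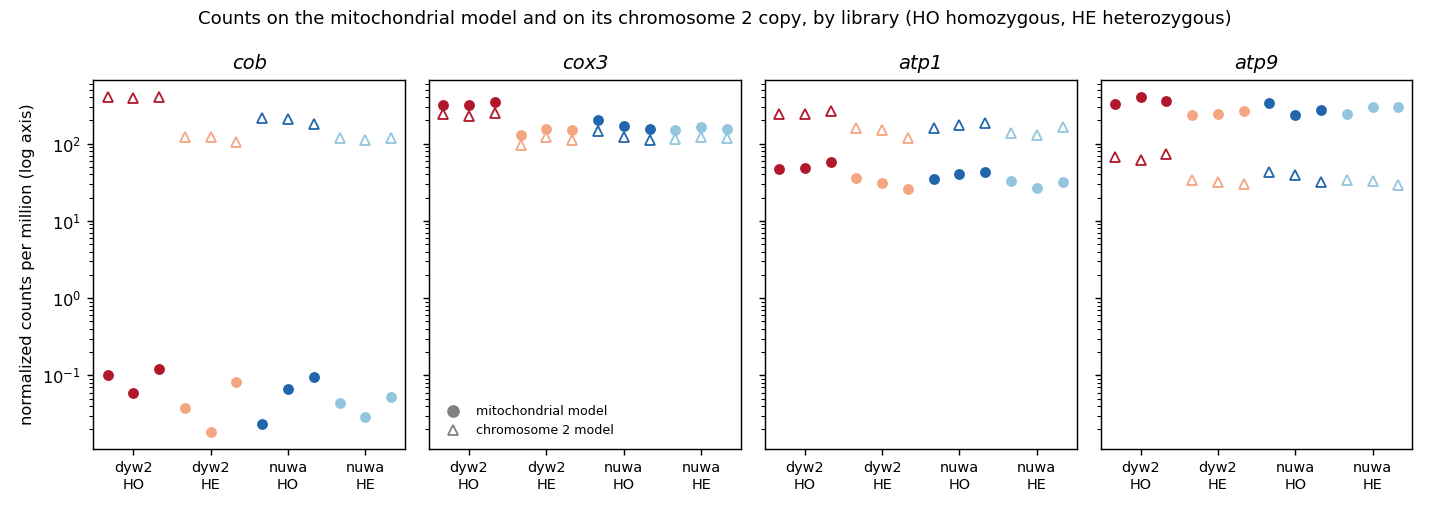
Normalized CPM (log axis) on the mitochondrial model (filled circles) and on the chromosome 2 model (open triangles) of cob, cox3, atp1 and atp9, 1 point per library, in the dyw2 homozygous (HO), dyw2 heterozygous (HE), nuwa homozygous and nuwa heterozygous libraries. Nearly all cob counts lie on the chromosome 2 model, and those of atp9 mostly on the mitochondrial model.

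Mitochondrial transcripts as a whole took more of the dyw2 homozygous libraries. The mitochondrial pool, the sum over 123 models without the 3 rRNA and 20 tRNA models, held 2.91% ± 0.0949 of counts in dyw2 homozygous libraries and 0.345% ± 0.0347 in dyw2 heterozygous ones (SD, n = 3 each). In nuwa it held 0.538% ± 0.0481 of counts in homozygous libraries and 0.325% ± 0.0192 in heterozygous ones (SD, n = 3 each). The TMM factors, which correct for the makeup of a library, were 2.02 to 2.23 in dyw2 homozygous libraries and 0.617 to 0.985 elsewhere. After this correction the pool was 3.38 times as large in dyw2 homozygous libraries as in dyw2 heterozygous ones, and 1.63 times as large in nuwa homozygous as in nuwa heterozygous ones. Fewer cells of a type and less RNA per cell cannot be told apart in these bulk samples.

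In dyw2 homozygous libraries 7 of the 8 tested genes rose by TMM-normalized counts, cox1 the most, while atp6-1 did not pass the test. None of the 8 fell (0 at an unadjusted p under 0.05, and 0 by DESeq2). Of all 21213 models tested, 30.1% were called higher and 32.8% lower in this comparison by edgeR at an adjusted p under 0.05, 62.9% were called in either direction, and the median log2 fold change was -0.05. Of the 69 other tested mitochondrial models 67 were called higher. The median log2 fold change of the 8 genes was 0.76, against 2.83 for these 69. All 8 lay below the median of the 77 tested mitochondrial models, and 6 were among the lowest 10. Measured against the mitochondrial pool the direction was the opposite, with 7 of the 8 genes lower and none higher, as given further on.

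**Figure D2:**
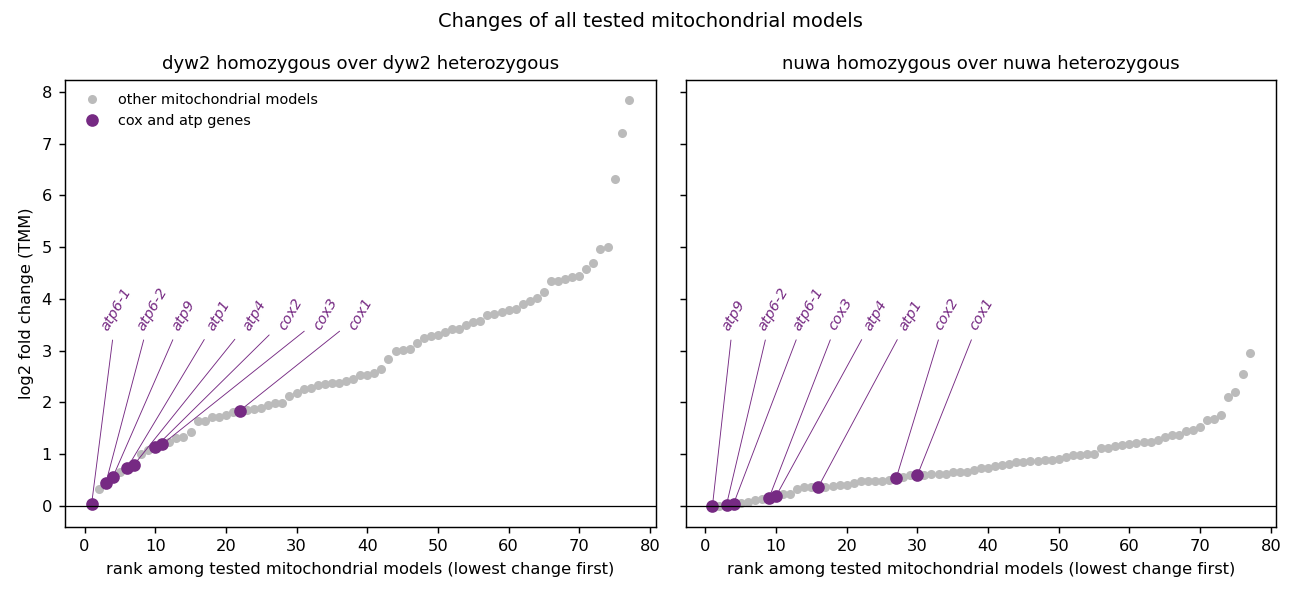
Log2 fold change (TMM-normalized counts, homozygous over heterozygous) of the 77 tested mitochondrial models, ordered from the lowest, in dyw2 (left) and nuwa (right), with the 8 cox and atp genes in purple and all others in grey. The 8 genes sit in the lower part of both orders, with atp6-1 lowest in dyw2 and atp9 lowest in nuwa, and relative to the mitochondrial pool 7 were called lower in dyw2 and 4 in nuwa.

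The cox genes, whose products form the catalytic core of complex IV, rose most. Cox1 (ATMG01360), the gene of the subunit that holds the heme and copper center where oxygen is reduced, had 3479, 3894 and 3520 normalized CPM in dyw2 homozygous libraries, against 1003, 1140 and 899.1 in dyw2 heterozygous ones. Every dyw2 homozygous library lay far above every heterozygous one. The fold was 3.58 (log2 fold change 1.84 ± 0.15 SE, edgeR adjusted p = 1.81e-06), and all windows of cox1 were unique in the reference. Cox2 (ATMG00160), whose product receives electrons from cytochrome c, had 1229, 1332 and 1188 in dyw2 homozygous libraries, against 498.4, 610.9 and 607.1 in dyw2 heterozygous ones, without overlap. The dyw2 homozygous mean was 2.18 times the heterozygous one, a log2 value of 1.13 ± 0.16 SE (edgeR adjusted p = 8.57e-05). Cox3 (ATMG00730), the gene of the third core subunit, had 317.8, 321.6 and 348.1 in dyw2 homozygous libraries, against 130.2, 154.1 and 149.5 in dyw2 heterozygous ones. The ratio was 2.28, again without overlap, or 1.19 ± 0.14 SE as log2 (edgeR adjusted p = 2.11e-05).

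The atp genes rose less in dyw2 or did not pass the test. Atp1 (ATMG01190), the gene of the alpha subunit in the catalytic head of ATP synthase, had 47.47, 49.03 and 57.2 normalized CPM in dyw2 homozygous libraries, against 36.01, 31.03 and 26.15 in dyw2 heterozygous ones. Its log2 fold change was 0.72 ± 0.15 SE (edgeR adjusted p = 0.00131), without overlap. Atp4 (ATMG00640), the gene of a subunit of the stator stalk, had 134.2, 83.85 and 169.9 in dyw2 homozygous libraries, against 64.85, 70.1 and 89.23 in dyw2 heterozygous ones. These groups overlapped, since dyw2 homozygous replicate 2, whose labels disagree, lay below dyw2 heterozygous replicate 3. Its log2 fold change of 0.79 ± 0.31 SE was just past the threshold (edgeR adjusted p = 0.0448) and was 1.02 without both libraries of disputed label (adjusted p = 0.00254). The call of atp4 was lost when any of dyw2 homozygous replicates 1 or 3 (edgeR adjusted p = 0.0956 and 0.183) or dyw2 heterozygous replicates 1 or 2 (0.129 and 0.11) was left out, and also without nuwa heterozygous replicate 2 (0.0517) or 3 (0.0531) or nuwa homozygous replicate 2 (0.0524). With the flower bud markers as a covariate the log2 fold change of atp4 was 0.18 (adjusted p = 0.719). The level of these markers did not overlap between the dyw2 groups, so this fit cannot separate the markers from the label.

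The remaining atp genes encode the membrane part of ATP synthase. Atp9 (ATMG01080), the gene of the subunit that forms the rotor ring, had 328.5, 401.6 and 355.7 normalized CPM in dyw2 homozygous libraries, against 232.3, 245.2 and 263.7 in dyw2 heterozygous ones. Its log2 fold change was 0.55 ± 0.16 SE (edgeR adjusted p = 0.00979), without overlap, and the adjusted p was 0.0501 without both libraries of disputed label. The atp6 copies carry the gene of the subunit that lets protons pass to the ring. Atp6-2 (ATMG01170) had 149.8, 159.6 and 161.7 in dyw2 homozygous libraries, against 104.9, 124.4 and 120.1 in dyw2 heterozygous ones. Its log2 fold change was 0.43 ± 0.14 SE (edgeR adjusted p = 0.0177), without overlap, and it was not called without dyw2 heterozygous replicate 1 (adjusted p = 0.0766). With the flower bud markers as a covariate neither atp6-2 (0.23, adjusted p = 0.326) nor atp9 (0.53, adjusted p = 0.0778) was called. Atp6-1 (ATMG00410) had 129.6, 146.9 and 131.9 in dyw2 homozygous libraries, against 122.2, 145.4 and 133.0 in dyw2 heterozygous ones. These ranges overlapped, and the log2 fold change was 0.03 ± 0.15 SE (edgeR adjusted p = 0.88). In all, 6 of the 8 genes were higher in dyw2 without overlap between the groups, as were 34.7% of all tested models.

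**Figure D3:**
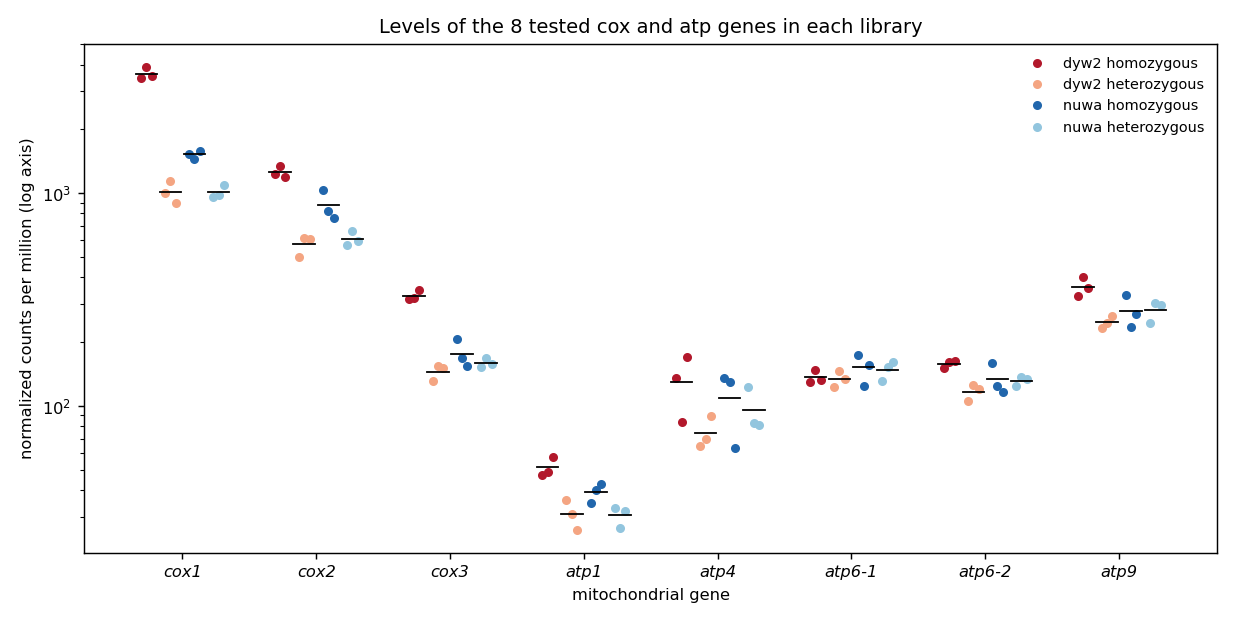
Normalized CPM (log axis) of the 8 tested genes, 1 point per library and a bar at the mean, in dyw2 homozygous, dyw2 heterozygous, nuwa homozygous and nuwa heterozygous libraries (n = 3 each). Cox1, cox2 and cox3 of the dyw2 homozygous libraries stand clear of the heterozygous ones, and atp6-1 lies between 122.2 and 173.8 in all 12 libraries.

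In nuwa homozygous libraries 0 of the 8 genes were called by edgeR on TMM-normalized counts in either direction (3, all higher, at an unadjusted p under 0.05, and 2 by DESeq2). Of all 21213 models 1.54% were called higher, 0.636% lower and 2.18% in either direction, and 22 of the 69 other mitochondrial models were called higher. The median log2 fold change of the 8 genes was 0.16, against 0.81 for those 69 and -0.02 for all models. Cox1 had 1524, 1441 and 1576 normalized CPM in nuwa homozygous libraries, against 951.6, 974.7 and 1093 in nuwa heterozygous ones. The groups did not overlap, and the log2 fold change was 0.59 ± 0.15 SE (edgeR adjusted p = 0.0641, DESeq2 adjusted p = 5.19e-06). Cox2 had 1034, 822.9 and 764.3 in nuwa homozygous libraries, against 567.1, 658.0 and 592.0 in nuwa heterozygous ones. These did not overlap either, with a log2 fold change of 0.53 ± 0.16 SE (edgeR adjusted p = 0.107, DESeq2 adjusted p = 0.00281), and without nuwa homozygous replicate 3 cox2 was called (edgeR adjusted p = 0.0489). Atp1 had 35.05, 40.27 and 42.67 in nuwa homozygous libraries, against 32.94, 26.62 and 32.04 in nuwa heterozygous ones, a log2 fold change of 0.37 ± 0.15 SE (edgeR adjusted p = 0.214). These were the 3 genes without overlap between the nuwa groups. Over all tested models 8.44% were higher in nuwa homozygous libraries without overlap.

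The other genes of the set overlapped between the nuwa groups. Cox3 had 204.7, 167.6 and 153.0 normalized CPM in nuwa homozygous libraries, against 152.0, 166.8 and 156.1 in nuwa heterozygous ones. Atp4 had 134.5, 128.5 and 63.1 in nuwa homozygous libraries, against 122.6, 83.19 and 81.4 in nuwa heterozygous ones. The low atp4 value in nuwa homozygous is replicate 3, the library of disputed label. For atp6-1, atp6-2 and atp9 the log2 fold changes were 0.04, 0.02 and -0.01, each with an SE of 0.14 to 0.16. Nuwa homozygous replicate 1 had the highest level of its group for cox2, cox3, atp4, atp6-1, atp6-2 and atp9.

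The difference between the effects of the mutants was tested as an interaction, with no library shared by the contrasts. It was called for cox1, cox3 and cox2, 3 of the 8 genes, and all 3 rose more in dyw2. For cox1 the log2 difference was 1.25 ± 0.21 SE (edgeR adjusted p = 0.000639), and for cox3 it was 1.04 ± 0.19 SE (edgeR adjusted p = 0.00132). For cox2 it was 0.60 ± 0.22 SE, close to the threshold (edgeR adjusted p = 0.0481), and 0.46 without both libraries of disputed label (adjusted p = 0.175). The call of cox2 held under 6 of 23 alternatives, and it was lost when any library other than nuwa homozygous replicate 1 was left out (adjusted p from 0.0601 to 0.151). Of all models 19.2% were called higher and 21.7% lower in this contrast, and 58 of the 69 other mitochondrial models were called higher. Between the dyw2 heterozygous and the nuwa heterozygous libraries 0 of the 8 genes were called (0 at an unadjusted p under 0.05, and 0 by DESeq2), as were 0.0283% of all models in the higher and 0.104% in the lower direction.

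Scaled to the mitochondrial pool, 7 of the 8 genes were called lower in dyw2 homozygous libraries and 4 in nuwa homozygous ones. On this scale the library size is the sum over the pool, so a value says how a gene changed against mitochondrial transcripts as a whole. In dyw2, cox1 was the gene not called lower, and none was called higher (0 at an unadjusted p under 0.05). Of the other 69 mitochondrial models 5 were called lower and 47 higher. On this scale 81.7% of all models, most of them nuclear, were called lower and 4.63% higher, and the median over all models was -1.81 on the log2 scale. Atp6-1 was lowest, at -1.73 ± 0.13 SE (log2, edgeR adjusted p = 8.18e-08). Atp6-2 followed at -1.33 ± 0.10 SE (adjusted p = 1.3e-07) and atp9 at -1.21 ± 0.13 SE (edgeR adjusted p = 2.69e-06). The other called log2 values were -1.04 for atp1, -0.97 for atp4, -0.63 for cox2 and -0.57 for cox3. Cox1 moved with the pool, at 0.08 ± 0.13 SE (edgeR adjusted p = 0.541), and at -0.30 when the 8 genes were left out of the pool (adjusted p = 0.0614).

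In nuwa, 4 of the 8 genes were called lower relative to the pool and none higher (0 at an unadjusted p under 0.05). Of the other 69 mitochondrial models 7 were called lower and 9 higher, and of all models 64.3% were lower and 0.467% higher. The 4 genes were atp9 (-0.72 ± 0.13 SE, log2), atp6-2 (-0.69 ± 0.10), atp6-1 (-0.67 ± 0.12) and cox3 (-0.56 ± 0.10), with edgeR adjusted p between 0.000481 and 0.00122. With the members left out of the pool, 8 of 8 were called lower in nuwa. Atp6-1, atp1, atp6-2, atp9 and cox2 were further below the pool in dyw2 than in nuwa, by 0.45 to 1.06 on the log2 scale, with edgeR adjusted p between 0.000238 and 0.0348 for the difference, for which 57.6% of all models were called lower. For cox3 the value was nearly the same in both mutants, and the difference was -0.01 ± 0.14 SE (edgeR adjusted p = 0.972).

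**Figure D4:**
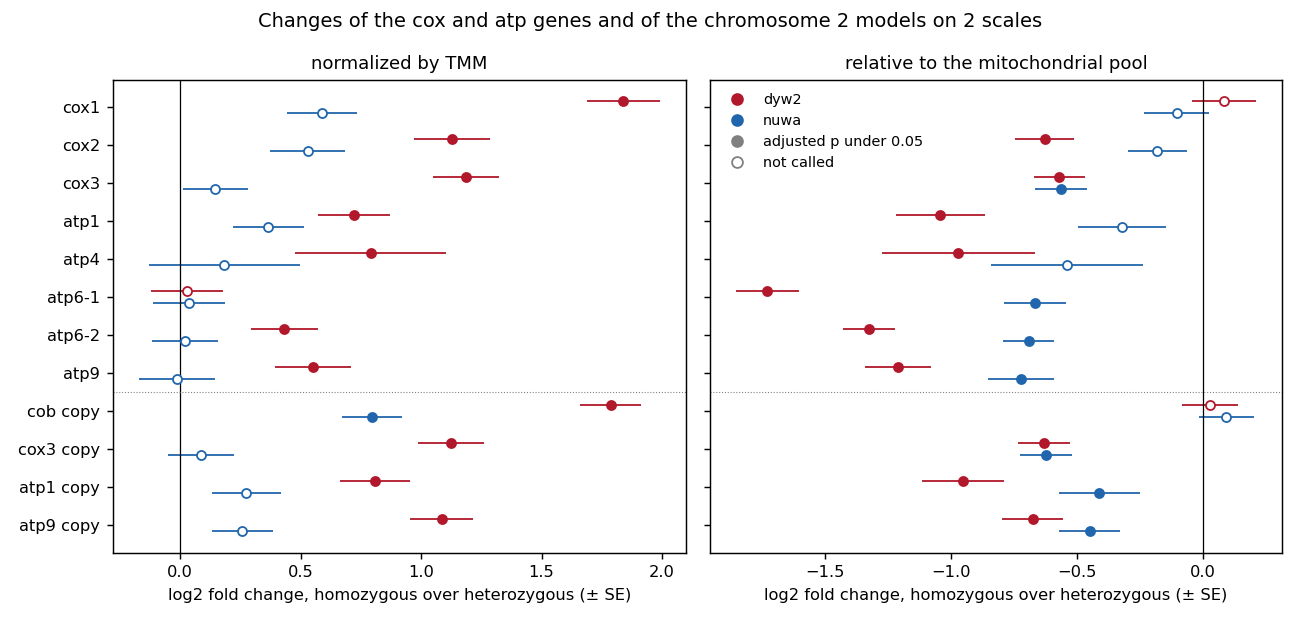
Log2 fold change with its SE, homozygous over heterozygous, of the 8 genes and of the 4 chromosome 2 models with enough counts, in dyw2 (red) and nuwa (blue), normalized by TMM (left) or relative to the mitochondrial pool (right), filled where the edgeR adjusted p was under 0.05. On the left the dyw2 values lie at or above 0, and on the right the values lie below 0 except for cox1 in dyw2 and the cob copy in both mutants.

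As shares of the pool, the 10 genes together held 43.7% ± 1.86 in dyw2 homozygous libraries and 56.9% ± 0.985 in dyw2 heterozygous ones (SD, n = 3 each). In nuwa they held 46.2% ± 1.40 in homozygous and 56.4% ± 1.37 in heterozygous libraries (SD, n = 3 each). Neither pair of groups overlapped, and both gave p = 0.1 in an exact two-sided permutation test, the smallest that 3 against 3 allow. The nuwa difference of -10.2 percentage points was -6.49 with the model ATMG00070 left out of the pool, an alternative chosen after its rise in nuwa homozygous libraries had been seen. The atp genes together held less of the pool in homozygous libraries, with 6.03% ± 0.196 in dyw2 homozygous libraries and 14.7% ± 0.843 in dyw2 heterozygous ones, and 9.99% ± 0.473 in nuwa homozygous libraries and 15.8% ± 0.283 in nuwa heterozygous ones. The cox genes together held 37.6% ± 1.92 in dyw2 homozygous and 42.2% ± 1.42 in dyw2 heterozygous libraries. Cox1 alone, the mitochondrial model with most counts over all libraries, kept a similar share, with 26.2% ± 1.48 in dyw2 homozygous and 24.7% ± 2.1 in dyw2 heterozygous libraries (exact permutation p = 0.5).

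**Figure D5:**
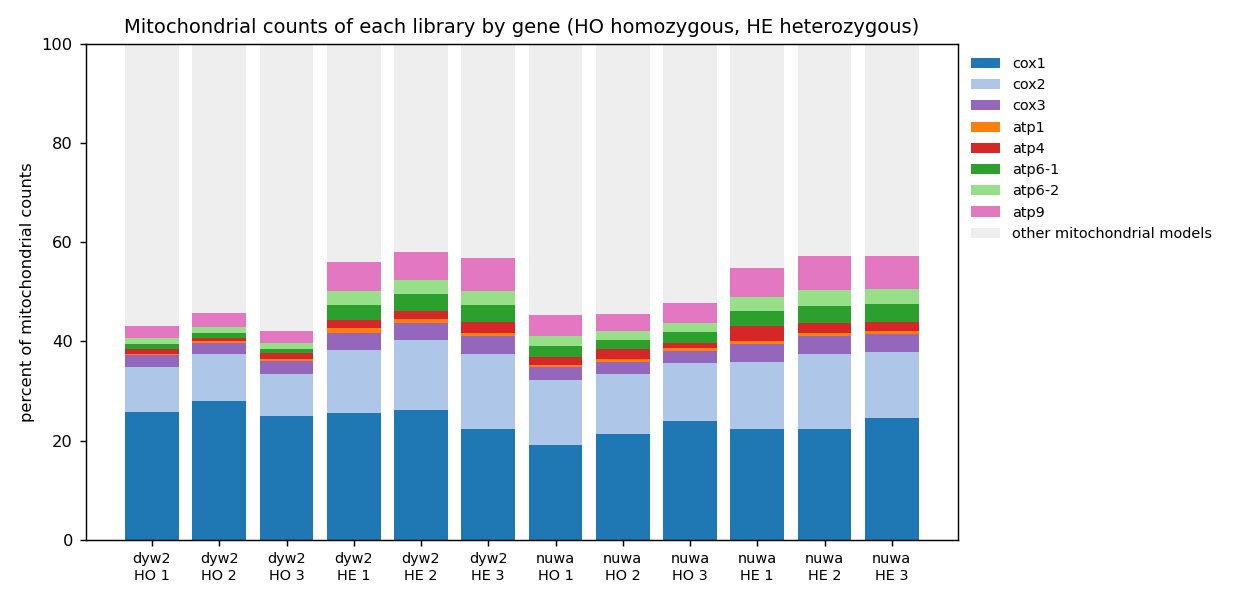
Percent of mitochondrial pool counts held by each of the 8 tested genes (colours) and by all other mitochondrial models (light grey) in each library, with homozygous (HO) left of heterozygous (HE) libraries for dyw2 and nuwa. The coloured part is 42.2% to 45.8% in dyw2 homozygous and 56.0% to 58.0% in dyw2 heterozygous libraries.

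Ratios within a library do not depend on its scaling, and the ones given here were chosen after the values were seen. Per base of model, cox1 had 1.40 to 1.46 times the counts of cox2 in dyw2 homozygous libraries, against 0.732 to 0.995 in dyw2 heterozygous ones. In nuwa this ratio was 0.729 to 1.02 in homozygous and 0.732 to 0.913 in heterozygous libraries. The order of the cox genes thus differed in the dyw2 homozygous libraries. Counts of atp6-1 over those of atp6-2 were 0.816 to 0.921 in dyw2 homozygous libraries, against 1.11 to 1.17 in dyw2 heterozygous ones. In nuwa they were 0.9997 to 1.35 in homozygous and 1.05 to 1.20 in heterozygous libraries, and these ranges overlapped. Per base of model, atp9 had 0.297 to 0.324 times the counts of cox1 in dyw2 homozygous libraries, against 0.676 to 0.922 in dyw2 heterozygous ones. The same ratio was 0.508 to 0.685 in nuwa homozygous and 0.811 to 0.976 in nuwa heterozygous libraries, so it was lower without overlap in both mutants.

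On the scale of normalized CPM, divided by model length in kilobases, levels of different genes can be set side by side, within the limits of the removed reads and of the counts on the chromosome 2 models. Leaving these out omits 82.4% of atp1 and 42.5% of cox3 counts, so the places of these genes in the order hold for the mitochondrial models alone. On their own lengths the chromosome 2 models of atp1 and cox3 were at 103 ± 6.44 and 240 ± 11.7 in dyw2 homozygous libraries (SD, n = 3 each). In dyw2 homozygous libraries the order was cox1 (2292 ± 144), cox2 (1596 ± 95.1), atp9 (718 ± 73.3), cox3 (227 ± 11.4), atp4 (223 ± 74.7), atp6-2 (113 ± 4.59), atp6-1 (103 ± 7.13) and atp1 (33.6 ± 3.43, SD, n = 3 each). The neighbours cox3 and atp4, and atp6-2 and atp6-1, overlapped. In dyw2 heterozygous libraries cox2 came first (731 ± 81.6), overlapping with cox1 (640 ± 76.4), then atp9 (490 ± 31.3), atp4 (129 ± 22.2), atp6-1 (101 ± 8.82), cox3 (99.9 ± 8.74), atp6-2 (84.1 ± 7.40) and atp1 (20.4 ± 3.24, SD, n = 3 each), and atp6-1 and cox3 overlapped. In nuwa homozygous libraries cox2 was at 1116 ± 181 and cox1 at 955 ± 42.9, and in nuwa heterozygous libraries cox2 was at 774 ± 60.0 and cox1 at 635 ± 47.9 (SD, n = 3 each). They overlapped in the nuwa homozygous group and not in the nuwa heterozygous one.

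Of the chromosome 2 models, those of cob, cox3, atp1 and atp9 had enough counts to be tested. The cob copy AT2G07727 had 391.2 to 408.8 normalized CPM in dyw2 homozygous libraries, against 103.8 to 123.8 in dyw2 heterozygous ones. It rose with cox1, by 3.45-fold (1.79 ± 0.13 SE as log2, edgeR adjusted p = 8.08e-07). In nuwa homozygous libraries it had 180.0 to 216.7, against 110.4 to 120.1 in nuwa heterozygous ones, and rose 1.74-fold (log2 fold change 0.80 ± 0.12 SE, edgeR adjusted p = 0.0107). That call was lost without nuwa heterozygous replicate 1 (adjusted p = 0.0526) or nuwa homozygous replicate 2 (0.0566), in a fit of the nuwa groups alone (0.0997) and with the flower bud covariate (0.61 as log2, adjusted p = 0.177). It was also lost with groups from the genotype field (1.23 as log2, edgeR adjusted p = 0.15). Relative to the pool the cob copy was at 0.03 ± 0.11 in dyw2 and 0.09 ± 0.11 in nuwa (log2, SE). All 4 tested copies were called higher in dyw2 on TMM-normalized counts, and relative to the pool the copies of cox3, atp1 and atp9 were lower. On TMM-normalized counts with groups from the genotype field, none of the copies was called in dyw2 (edgeR adjusted p from 0.141 to 0.172). The copies of cox3 and atp1 changed much as their mitochondrial models did in dyw2, at 1.12 ± 0.14 beside 1.19 ± 0.14 for cox3 and 0.81 ± 0.15 beside 0.72 ± 0.15 for atp1 (log2, SE). The atp9 copy was at 1.09 ± 0.13 SE, beside 0.55 ± 0.16 SE for the mitochondrial model. With the counts of each pair of models summed, 9 genes could be tested, and 8 were called higher in dyw2 and 1, cob, in nuwa.

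Of the nuclear genes for complexes III, IV and V, 38 were listed and tested, and in dyw2 9 were called higher and 11 lower by edgeR. In nuwa 0 were called (at an unadjusted p under 0.05, 3 of complex III, 0 of complex IV and 4 of complex V, and 3 in all by DESeq2). The dyw2 counts stand beside 30.1% and 32.8% of all models called higher and lower. All these values are on the TMM scale, and relative to the mitochondrial pool 36 of the 38 were called lower in dyw2, 32 in nuwa and none higher in either. On the pool scale 81.7% of all models were called lower in dyw2 and 64.3% in nuwa, so such a fall is not particular to these genes. None of the 9 nuclear complex IV genes was called higher in dyw2 (0 at an unadjusted p under 0.05, and 0 by DESeq2), and 4 were called lower, with a list median of -0.36 on the log2 scale against -0.05 for all models. They include the COX6B gene AT5G57815 (-0.73 ± 0.17 SE), the COX5B gene AT3G15640 (-0.52 ± 0.13 SE) and the COX6A gene AT4G37830 (-0.51 ± 0.13 SE), all subunits around the catalytic core, with edgeR adjusted p between 0.00241 and 0.00502. Of 15 complex III genes 5 were called higher and 4 lower, with a median of -0.12. Those higher included MPPBETA (AT3G02090, 0.99 ± 0.23 SE) and AT1G51980 (0.56 ± 0.13 SE), which encode core subunits that in plants also act as the mitochondrial processing peptidase, and a QCR7 gene, AT5G25450 (1.20 ± 0.38 SE), which was not called without dyw2 heterozygous replicate 2 (adjusted p = 0.0615) or dyw2 homozygous replicate 1 (0.0528). Those lower included a QCR6 gene, AT2G01090 (-0.77 ± 0.13 SE), a cytochrome c1 gene, AT5G40810 (-0.53 ± 0.14 SE), and the other QCR7 gene, AT4G32470 (-0.60 ± 0.15 SE).

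Of 14 nuclear complex V genes 4 were called higher and 3 lower in dyw2, with a median log2 fold change of -0.14. The 3 genes of the beta subunit were all higher, as in AT5G08680 (1.44 ± 0.21 SE) and AT5G08690 (0.81 ± 0.20 SE). They lie beside each other and are near-identical, so the split of reads among them is uncertain. AT4G26210, a gene of a small membrane subunit, was at 0.69 ± 0.12 SE. The genes of the delta subunit AT5G47030 (-0.60 ± 0.12 SE) and of the gamma subunit ATP3 (-0.45 ± 0.12 SE), and MGP1 (AT2G21870, -0.68 ± 0.12 SE), were lower. The genes of cytochrome c, which carries electrons between complexes III and IV, were both higher in dyw2 by TMM. Both were lower relative to the pool, as were 81.7% of all models. By TMM, CYTC-1 was at 0.71 ± 0.15 SE (edgeR adjusted p = 0.00152) and CYTC-2 at 0.44 ± 0.15 SE (edgeR adjusted p = 0.0227). CYTC-2 was not called without dyw2 heterozygous replicate 1 (adjusted p = 0.0941) or dyw2 homozygous replicate 1 (0.0857). With groups from the genotype field CYTC-1 was not called (edgeR adjusted p = 0.179).

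Complex IV assembly genes rose in dyw2 by TMM, and relative to the pool 1 of 9 was called higher and 5 lower, beside 4.63% and 81.7% of all models. By TMM, of the 9 tested, 8 were called higher and 0 lower (0 lower at an unadjusted p under 0.05, and 0 lower by DESeq2), with a median log2 fold change of 1.10, beside 30.1% and 32.8% of all models called higher and lower. COX17 (AT3G15352), a copper chaperone, was at 2.44 ± 0.19 SE (edgeR adjusted p = 1.52e-06). COX15 (AT5G56090), for heme A synthesis, was at 1.89 ± 0.13 SE (edgeR adjusted p = 5.89e-07), and HCC1 (AT3G08950), related to the yeast copper chaperone SCO1, at 1.54 ± 0.13 SE (edgeR adjusted p = 1.92e-06). With groups from the genotype field HCC1 was not called in dyw2 (edgeR adjusted p = 0.141). Over all alternatives the adjusted p in dyw2 reached 0.147 for COX17 and 0.141 for COX15. In nuwa 2 of the 9 were called, HCC1 (0.81 ± 0.13 SE, edgeR adjusted p = 0.0109) and COX15 (0.68 ± 0.13 SE, edgeR adjusted p = 0.0227), and 4 were called by DESeq2, beside 1.54% of all models called higher by edgeR. HCC1 in nuwa was not called after thinning to the smallest library (adjusted p = 0.108), in a fit of the nuwa groups alone (0.112) or with the flower bud covariate (0.0879). The nuwa call of COX15 was lost on leaving out heterozygous replicate 1 (adjusted p = 0.0827), heterozygous replicate 3 (0.0729) or homozygous replicate 2 (0.0622), after thinning (0.0772), in a fit of the nuwa groups alone (0.128), with the replicate block (0.0519) and with the flower bud covariate (0.0699). Over all alternatives, which include groups from the genotype field, the adjusted p in nuwa reached 0.141 for HCC1 and 0.176 for COX15.

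In dyw2 the summed flower bud, rosette leaf and tapetum markers were lower in homozygous libraries without overlap, and the summed stem markers overlapped. In nuwa the sums of each of these lists overlapped between the groups. By mean log2 level after TMM, the flower bud markers were lower in nuwa homozygous libraries without overlap, at -2.25 to 2.34 against 2.59 to 3.27. So were the tapetum markers, at -4.56 to -0.51 against -0.27 to 0.93. The stem and rosette leaf markers overlapped in nuwa on that scale too. The 8 flower bud markers summed to 12.2 to 21.1 CPM without the TMM correction in dyw2 homozygous libraries, against 30.7 to 105.7 in dyw2 heterozygous ones. They summed to 5.27, 2.85 and 54.3 in nuwa homozygous replicates 1, 2 and 3, against 47.9 to 82.9 in nuwa heterozygous ones, and AP1 and CAL were at 0 in nuwa homozygous replicates 1 and 2. The 5 rosette leaf markers summed to 7525 to 11073 in dyw2 homozygous libraries, against 24056 to 27225 in dyw2 heterozygous ones, and to 23290 to 26688 in nuwa homozygous libraries, against 22490 to 24544 in nuwa heterozygous ones. The 5 stem markers summed to 9.75 to 17.6 in dyw2 homozygous libraries, against 7.36 to 18.5 in dyw2 heterozygous ones, and to 4.70 to 15 in nuwa homozygous libraries, against 4.29 to 12.7 in nuwa heterozygous ones. Of the 5 tapetum markers 4 or 5 were at 0 in each dyw2 homozygous library, where they summed to at most 0.184, against 0.205 to 21.2 in dyw2 heterozygous libraries, of which replicate 2 had 3 at 0. They summed to 0 to 6.42 in nuwa homozygous libraries, against 5.40 to 16.5 in nuwa heterozygous ones. With the mean log2 level of the flower bud markers as a covariate, 4 of the 8 genes, cox1, cox2, cox3 and atp1, were called higher in dyw2 and 0 in nuwa. This covariate did not overlap between the groups of either mutant, and in dyw2 it was -1.11 to -0.21 in homozygous and 1.72 to 3.2 in heterozygous libraries. A fit with it therefore cannot separate these markers from the label, and calls kept or lost with it do not show their part. The part of the leaf, stem and tapetum markers in these results was not tested.

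By the root mean square difference of log2 levels over the 12 libraries, each gene centred on its own mean, the genes most like the mean profile of the 8 were AT5G66820 (0.098), AT1G24267 (0.108), AT5G13780 (0.112), AT4G22740 (0.118) and PDCB4 (AT1G69295, 0.118), all nuclear. The 8 genes themselves lay at 0.173 to 0.46 from their own mean profile, cox2 nearest and cox1 farthest.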

How the data were processed

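Total RNA of 12 samples was sequenced after ribosomal depletion with a stranded TruSeq kit and single reads, per the labels' protocols. TopHat2, Bowtie2 and TAIR10 are named without versions in the submitters' processing notes. The deposited values are raw counts per gene model, and per the file headers reads with equal best scores had been removed. No source says whether the authors counted by strand.

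Counts were normalized by TMM and tested with edgeR 4.0.16 (R 4.3.3), in 1 quasi-likelihood model of the 4 titled groups (8 residual degrees of freedom). Models passing filterByExpr (minimum count 10, minimum total 15) were kept, 21213 of 33602, and p-values were adjusted by Benjamini-Hochberg over all of them, with calls at an adjusted p under 0.05. A second fit used the mitochondrial pool as library size. The SE is the absolute log2 fold change divided by the root of the F statistic. Shares were compared by exact permutation. DESeq2 1.42.0, other scalings and filters, thinning to the smallest library, left-out libraries, groups from the genotype field, a replicate block, a flower bud covariate and summed copies were alternatives. The fits were tested on simulated data.

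The members and gene lists were chosen with earlier results of these data known. All 10 genes, up to 3 called nuclear genes per list and direction by smallest p, and the 5 nearest profiles were named. The neighbouring mitochondrial models, which the rule also asked for, are not reported, because 0 of the 146 mitochondrial models matched the annotation by locus identifier. Mitochondrial symbols come from the definition of the gene set. Ratios within a library, and the atp6, cox1 and cox2 comparisons made with them, were chosen after their values were seen.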

Additional observations from a re-analysis of the deposited data

Results flagged for a closer look

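Several results differed between the mutants when the difference of their effects (the dyw2 effect minus the nuwa effect, each homozygous over heterozygous) was tested in edgeR. On TMM-normalized counts the log2 difference was 1.25 for cox1, 1.04 for cox3 and 0.60 for cox2 (adjusted p = 0.000639, 0.00132 and 0.0481). Among the chromosome 2 models it was 0.99 for the cob copy, 1.04 for the cox3 copy and 0.83 for the atp9 copy (edgeR adjusted p = 0.000962, 0.00137 and 0.0038). Relative to the mitochondrial pool the difference was negative, at -1.06 for atp6-1, -0.72 for atp1, -0.63 for atp6-2, -0.49 for atp9 and -0.45 for cox2 (edgeR adjusted p = 0.000238, 0.0235, 0.00216, 0.0348 and 0.0346). Cox2 differed on both scales, with opposite signs. The flower bud, rosette leaf and tapetum markers also had ranges that did not overlap between the dyw2 groups, all lower in homozygous libraries. By mean log2 level after TMM this also held for the stem markers in dyw2, and for the flower bud and tapetum markers in nuwa. The flower bud markers of nuwa were lowest in homozygous replicates 1 and 2.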

How the results depend on the processing

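In dyw2 7 of the 8 genes were called higher on TMM-normalized counts, against 4 with the flower bud covariate, 0 with groups from the genotype field, 6 without both disputed libraries and 5 to 7 when 1 library was left out. The share of all models called with groups from the genotype field is not reported here. In nuwa 0 were called higher, against 2 by DESeq2, 1 with copies summed and 0 to 1 with 1 library left out (1 without nuwa homozygous replicate 3). For the difference 3 were called higher, against 0 with the genotype field, 5 with copies summed and 2 to 5 with 1 library left out (5 without nuwa homozygous replicate 1). Of the nuclear complex III, IV and V genes 9 and 11 were called higher and lower in dyw2, against 0 and 0 with the genotype field, 6 to 9 and 10 to 14 with 1 library left out. In nuwa 0 nuclear genes were called higher, against 3 by DESeq2 and 0 to 2 with 1 library left out (2 without nuwa homozygous replicate 1). Relative to the pool 7 in dyw2 and 4 in nuwa were lower with any 1 library left out, and 8 in nuwa with the members left out of the pool. The cause of these changes was not tested.

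Values near 0 changed sign. Cox1 relative to the pool was -0.30 in dyw2 with the members left out of the pool and 0.0145 in nuwa without ATMG00070. These pools moved the median of all models by -0.38 in dyw2 and -0.30 in nuwa (members left out), and by 0.12 in nuwa (ATMG00070 left out). In nuwa the flower bud covariate gave -0.0845 for cox3, -0.58 for atp4, -0.21 for atp6-2 and -0.16 for the cox3 copy. Atp9 in nuwa was 0.0219 with DESeq2 size factors and by DESeq2, 0.0335 with nuclear TMM factors, 0.0073 without both disputed libraries, 0.20 with the genotype field, 0.0157 with copies summed and -0.16 to 0.10 with 1 library left out. Atp6-2 in nuwa was -0.0027 in a fit of the nuwa groups alone and -0.13 to 0.11 with 1 library left out. Atp6-1 with 1 library left out was -0.042 to 0.0909 in dyw2, -0.0753 to 0.16 in nuwa and -0.14 to 0.10 for the difference. It was -0.0304 in dyw2 without both disputed libraries and 0.0514 for the difference with the genotype field, and the cox3 copy in nuwa was -0.0348 to 0.17 with 1 library left out.

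No source says whether shared replicate numbers pair the samples. The correlations of same-numbered deviations were 0.09, 0.01 and 0.01 in dyw2 and -0.01, 0.06 and 0.17 in nuwa. Those of differently numbered libraries reached from -0.24 to 0.18. With 3 libraries a group these values cannot decide whether samples were paired. With the replicate block 6 of the 8 genes were called higher in dyw2, 0 in nuwa and 2 for the difference, and relative to the pool 7 and 4 were lower. With 3 libraries a group, no exact test of a single share can give a p under 0.1. The part of reads removed for equal scores in the counts of cob, atp8 and the atp6 copies was not tested.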
